A study of Mus musculus with 4 samples.

Results

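Genes with which myeloid cells restrain T-cells were followed in the uterus of pregnant mice. The set was chosen by name, with earlier results of these data known. Of its genes 8 are described, namely the arginine-consuming enzyme Nos2, the alarmins S100a8 and S100a9, the oxidase subunit Cybb, the tryptophan-degrading enzyme Ido1, the checkpoint ligand Cd274 (PD-L1), and the transcription factors Hif1a and Stat3. All 8 were found by symbol among the 55421 genes of the count tables, and 5 of them were among the 14492 genes with at least 1 CPM (counts scaled to a common library total) in at least 2 libraries. Nos2, S100a8 and Ido1 stayed under that limit.

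RNA had been sequenced from whole uteri of 2 WT mice (C57BL/6J) and 2 Qa2- mice (B6.Cg-H2b3/FlaCmwJ, called B6.K1), all pregnant at E18.5 after syngeneic mating, with 1 poly(A) library per mouse. Qa-2 is a non-classical MHC class I molecule encoded in the H2 complex. B6.K1 is a congenic strain that arose by recombination between H2 haplotypes, so that the 2 groups differ in a stretch of H2 and not in Qa-2 alone, and the strains were bought from different breeders, so genotype, strain and source cannot be told apart. No group had received a treatment.

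The cells best known for this program, myeloid-derived suppressor cells (MDSC), accumulate in tumors and in pregnancy and inhibit T-cell activation. They deprive T-cells of arginine, among other ways through inducible nitric oxide synthase, release reactive oxygen and nitrogen species, degrade tryptophan and display checkpoint ligands, while STAT3 and HIF-1α are known as regulators of their expansion and function. None of the 8 genes is restricted to MDSC, since macrophages, neutrophils, stromal, epithelial and endothelial cells use several of them as well. The comparison of the genotypes therefore asks whether this effector program differed at the level of whole uterine RNA.

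The total count was between 33286390 and 41041299 read pairs per library, with both WT libraries deeper, and 3 counts, the limit that a count of 0 allows, stood for 0.0731 to 0.0901 CPM. The label of each genotype was borne out by the Qa-2 genes on chromosome 17, as H2-Q6 had 4204 and 1192 counts in the WT libraries and 3 counts in each Qa2- library, and H2-Q7 had 6318 and 1251 counts against 4 and 2. The libraries also differed in the RNA level of tissue markers. Uterine tissue markers such as smooth muscle genes summed to 15777 and 25879 CPM in WT and to 15495 and 9057 CPM in Qa2- uteri, epithelial markers to 3325 and 1683 against 4589 and 4724 CPM, and endothelial markers to 1133 and 978 against 540 and 531 CPM. Erythroid markers summed to 356 and 691 CPM in WT and to 118 and 79.9 CPM in Qa2- uteri, and all 5 of them kept by the filter had both WT libraries above both Qa2- libraries. Their log2 fold changes had a median of 2.41, with 0 calls by edgeR and 5 by DESeq2. Over all genes both WT libraries were above for 25.4%, and DESeq2 called 2.79% higher in WT. For cell preparations the methods describe that fetuses, fetal placenta and vessels were taken off, and for the uteri taken for RNA they do not say so. Markers of the conceptus stood out in single libraries, with 13253 counts of Afp (yolk sac and fetal liver) in Qa2- replicate 1 against 158 to 1268 in the other libraries, and 308 counts of Psg21 (trophoblast) in WT replicate 2 against 0 elsewhere. In whole tissue, fewer cells of a type and less RNA per cell cannot be told apart. Whether these differences in tissue markers take part in any result that follows was not tested.

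The 8 genes differed widely in their level in the uterus. Compared per transcript length as TPM (length-scaled counts that sum to the same total in every library), with the mean over the 4 libraries, Hif1a was highest with 98.7 TPM, followed by Stat3 with 69.3 TPM. Hif1a thereby lay above 90.7% and Stat3 above 86.4% of the 14492 genes kept. Cybb (14.4 TPM) and S100a9 (10.2 TPM) stood near the middle, and S100a8 (3.61 TPM) and Cd274 (2.19 TPM) near the low end, above 17.4% and 10.6% of genes. Nos2 and Ido1 came last with 0.369 and 0.328 TPM. Hif1a, from 83.9 to 115 TPM, and Stat3, from 53.8 to 82.2 TPM, did not overlap in their library values, whereas Cybb (11.3 to 20.2 TPM) and S100a9 (3.10 to 15.5 TPM) overlapped, as did S100a8 (0.777 to 6.18 TPM) and Cd274 (1.71 to 3.02 TPM), and Nos2 and Ido1. The ubiquitous transcription factors thus made up the abundant end of the set, and the enzymes that are induced in activated myeloid cells its scarce end.

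**Figure D1:**
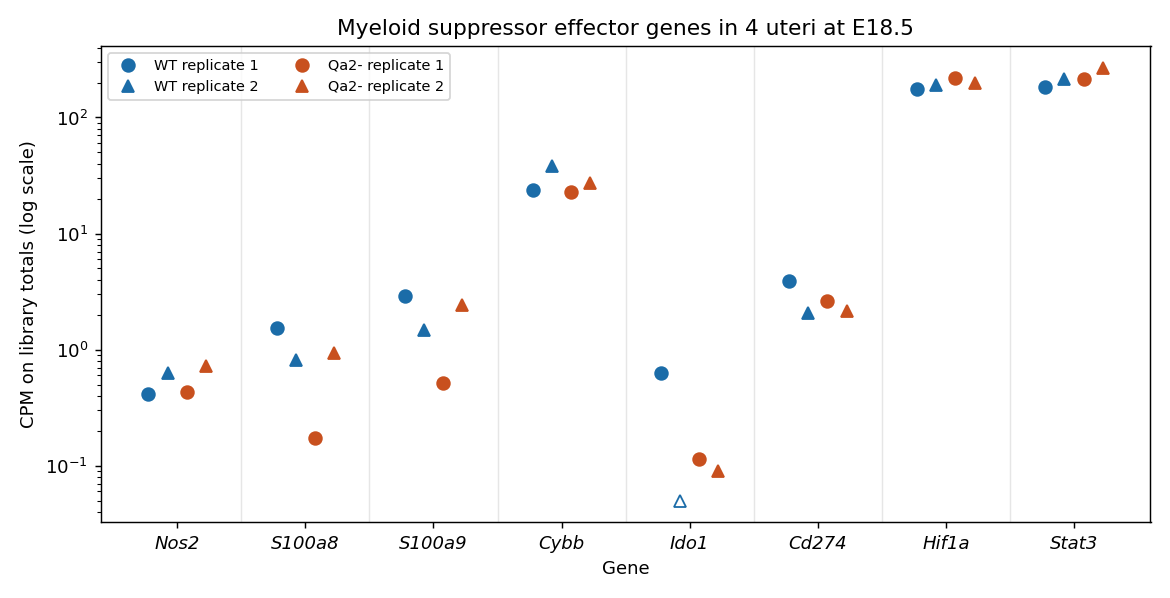
Expression of the 8 effector genes in each of the 4 uteri. Each point is 1 library, the vertical axis is CPM on library totals on a log scale, colors mark the genotype and shapes the replicate, and the open triangle of Ido1 stands for 0 counts and is drawn at the foot of the axis. Values of the genotypes are interleaved for most genes, S100a8 and S100a9 are lowest in Qa2- replicate 1, and Hif1a and Stat3 lie far above the others.

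None of the 5 genes kept differed between WT and Qa2- uteri at an adjusted p under 0.05 in either direction, with edgeR's quasi-likelihood test and Benjamini-Hochberg adjustment over all 14492 genes. This has to be read against the whole transcriptome, in which 0% of genes were called higher in WT and 0% higher in Qa2- uteri, the smallest adjusted p being 0.170. At an unadjusted p under 0.05 there were likewise 0 of the 5, where 8.09% of all genes (1172) were higher in WT and 7.09% (1027) higher in Qa2- uteri. DESeq2 called 0 of the 5 as well, although it called 2.79% of all genes (404) higher in WT and 2.04% (296) higher in Qa2- uteri. The log2 fold change of WT over Qa2- was above 0 for 3 genes and below 0 for 2, and its median was 0.40, next to 0.012 over all genes kept. With so few genes this median is the value of 1 gene, Cybb, and it lay between -0.047 and 0.26 when any 1 library was left out (-0.047 without WT replicate 1). With CPM scaled by TMM, edgeR's correction for composition, the 2 groups overlapped for all 5 genes, whereas both WT libraries lay above both Qa2- libraries for 25.4% of all genes (3684) and the reverse held for 24.5% (3555).

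The intervals show what could have been seen with 2 mice in each group. For Hif1a the 95% interval of the log2 fold change ran from -0.55 to 0.39 and for Stat3 from -0.72 to 0.35. For S100a9 it ran from -1.28 to 2.65, so that differences of several-fold lie within it. An exact permutation test of 2 against 2 libraries cannot give a two-sided p below 0.333. The p-values reported rest on the spread between these few mice, with the spread of each gene estimated partly from the other genes.

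**Figure D2:**
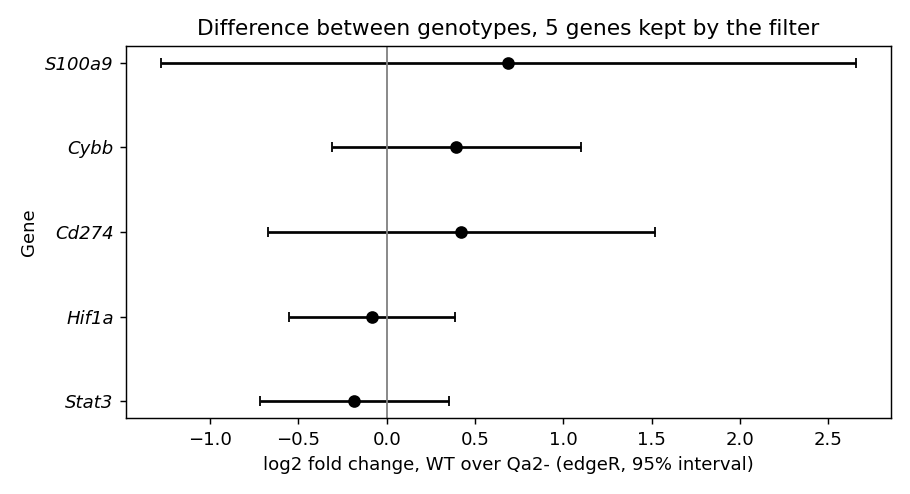
Difference between the genotypes for the 5 effector genes kept by the filter. The horizontal axis is the log2 fold change of WT over Qa2- with positive values higher in WT, points are edgeR estimates and bars their 95% intervals. Every interval includes 0, with the narrowest for Hif1a and Stat3 and the widest, from -1.28 to 2.65, for S100a9.

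Nos2 (ENSMUSG00000020826, chr11:78920787-78960254, plus strand) encodes inducible nitric oxide synthase, which makes nitric oxide from arginine. It had 17 and 25 counts in WT and 15 and 24 counts in Qa2- uteri, or 0.414 to 0.721 CPM, and the groups interleaved. A fit without the filter gave a log2 fold change of -0.020 (SE 0.68, edgeR adjusted p = 0.988). Nitric oxide synthase message in these uteri was almost entirely that of the endothelial enzyme, Nos3, which made up 96.0% to 98.7% of the counts of both genes. Nos3 had 1327 and 1426 counts in WT against 763 and 579 in Qa2- uteri, so that the groups did not overlap, with a log2 fold change of 0.90 (SE 0.20, edgeR adjusted p = 0.246). All 7 endothelial markers were ordered the same way, as were 25.4% of all genes.

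Of 16 genes of arginine transport, synthesis and use and of polyamine synthesis, Nos3 among them, 14 were kept and 0 called by edgeR. Both WT libraries were above both Qa2- libraries for 5 of them and below for 2, compared with 25.4% and 24.5% of all genes, and the median log2 fold change was 0.046, or -0.077 without WT replicate 2. On library totals these counts turned to 3 and 5, next to 18.7% and 32.0% of all genes, and the median to -0.051. At the upper end stood Gatm, which transfers the amidino group of arginine for creatine synthesis, with 20237 counts in WT replicate 1 against 352 to 1031 in the other libraries. Its log2 fold change of 3.73 turned to -0.20 without that mouse. At the lower end stood Sms, spermine synthase, with 560 and 461 counts in WT and 654 and 697 in Qa2- uteri (log2 fold change -0.55, SE 0.18, edgeR adjusted p = 0.296). DESeq2 called 1 of the 14, where it called 2.79% of all genes higher in WT, namely Nos3 (DESeq2 adjusted p = 0.029).

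**Figure D3:**
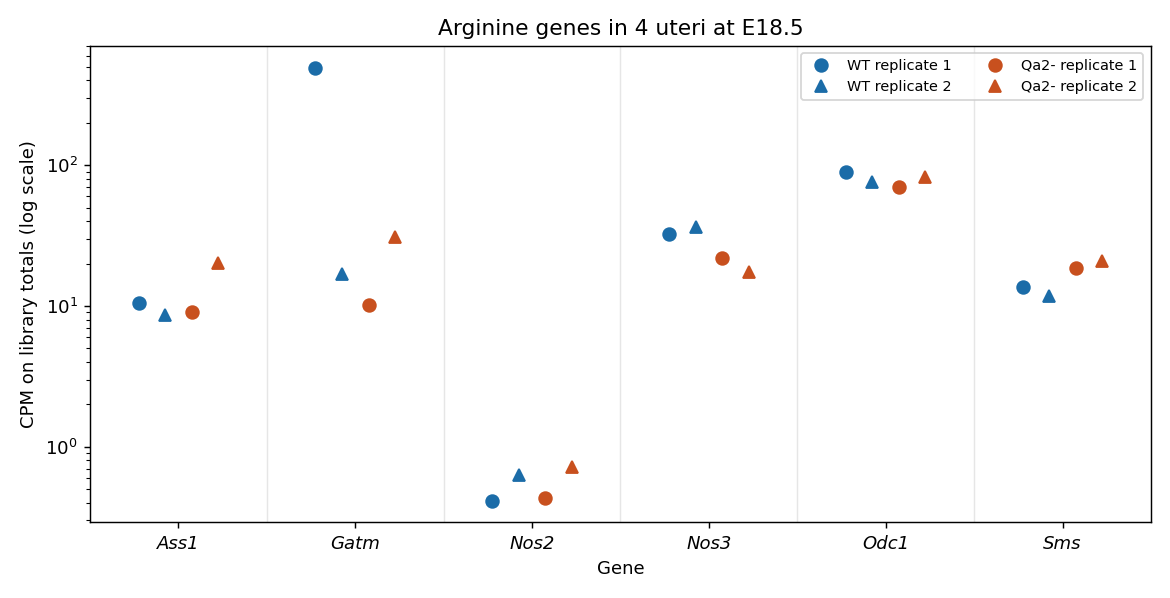
Nos2 and other genes of arginine use in the 4 uteri. Points are single libraries, the vertical axis is CPM on library totals on a log scale, colors mark the genotype and shapes the replicate. Gatm stands apart in WT replicate 1, Nos3 separates the genotypes, and Nos2 stays below 1 CPM in all 4 libraries.

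S100a8 and S100a9 encode the subunits of calprotectin, a calcium-binding heterodimer that is abundant in neutrophils and signals through TLR4 and RAGE. They lie as neighbours on chromosome 3 on opposite strands, S100a8 (ENSMUSG00000056054) at chr3:90668978-90670035 on the plus strand and S100a9 (ENSMUSG00000056071) at chr3:90692632-90695721 on the minus strand, with 22596 bases between their ends. Because their counts moved together over the 4 uteri, the sequences directly upstream of both genes are shown, taken from the RefSeq promoter table of GRCm38.p6 and written 5′ to 3′ on the strand of each gene. The S100a8 stretch, chr3:90668821-90668977, was ended just before the first base of the gene in the count tables, and the S100a9 stretch is chr3:90695722-90695971. Capitals mark the C/EBP half-site GCAAT or its complement ATTGC, C/EBP factors being the classical activators of myeloid genes.
S100a8: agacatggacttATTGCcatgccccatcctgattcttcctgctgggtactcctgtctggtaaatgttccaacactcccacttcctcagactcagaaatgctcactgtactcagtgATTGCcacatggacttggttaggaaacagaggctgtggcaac
S100a9: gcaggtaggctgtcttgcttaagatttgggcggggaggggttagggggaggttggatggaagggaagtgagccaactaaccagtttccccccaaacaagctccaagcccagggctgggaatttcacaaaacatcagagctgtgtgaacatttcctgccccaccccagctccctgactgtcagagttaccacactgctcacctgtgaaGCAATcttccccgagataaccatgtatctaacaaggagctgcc
The letters occur at 2 places in the S100a8 stretch and at 1 place in the S100a9 stretch. In windows of 250 bases before the RefSeq start of each gene, which for S100a8, Cybb and Hif1a lies inside the span given in the count tables, the half-site was present on either strand in 23.1% of 32851 promoters and in 3 of the 6 effector genes with an entry in that table (S100a8, S100a9 and Cybb). This motif was chosen after the sequences had been read, and a match is a description of letters and not of binding.

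S100a8 had 63 and 32 counts in WT and 6 and 31 counts in Qa2- uteri, which is 1.54 and 0.812 CPM against 0.172 and 0.931 CPM. S100a9 had 119 and 58 counts against 18 and 80, or 2.90 and 1.47 CPM against 0.515 and 2.40 CPM. Both genes had the same order of uteri, with WT replicate 1 highest, then Qa2- replicate 2, WT replicate 2 and Qa2- replicate 1. Hence the lowest values of both were in a Qa2- uterus, but the other Qa2- uterus lay between the WT uteri. The log2 fold change of S100a9 was 0.69 (SE 0.77, edgeR adjusted p = 0.697) and became -0.022 without Qa2- replicate 1. For S100a8, under the filter, a fit without it gave 1.21 (SE 0.76, edgeR adjusted p = 0.680). S100a9 took 65.4% of the counts of the pair in WT replicate 1 (exact 95% interval 58.0 to 72.3% of 182 counts), 64.4% in WT replicate 2 (53.7 to 74.3% of 90), 75% in Qa2- replicate 1 (53.3 to 90.2% of 24) and 72.1% in Qa2- replicate 2 (62.8 to 80.2% of 111). These 4 exact binomial (Clopper-Pearson) intervals, which cover counting error only, overlap, while the summed count of the pair ran from 24 to 182.

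Granulocyte content could hardly be read from these libraries. Of 13 granulocyte markers 2 were kept, and Ly6g (the antigen that defines granulocytic MDSC in mice), Ngp, Camp and Elane had at most 3 counts in any library. The sum of the list, 1329 and 617 CPM in WT and 433 and 5190 CPM in Qa2- uteri, was nearly that of Ltf alone (lactoferrin, made by neutrophils and by uterine epithelium), which had 172535 counts in Qa2- replicate 2 against 14704 to 54120 in the others. The highest library of the list was not the highest for S100a8 or S100a9. Csf3r, the receptor for the granulocyte growth factor G-CSF, had 169 and 242 counts in WT and 129 and 109 in Qa2- uteri (log2 fold change 0.65, SE 0.34, edgeR adjusted p = 0.412).

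The other S100 proteins and the alarmin receptors mostly stood higher in WT. Of 12 genes, 11 were kept, 0 were called by edgeR, and both WT libraries lay above both Qa2- libraries for 9 and below for 1, compared with 25.4% and 24.5% of all genes. The median log2 fold change was 0.57, and stayed between 0.51 and 0.58 when any 1 library was left out. S100a1, a calcium sensor of muscle, was the highest with 4665 and 2854 counts against 1615 and 1662 (log2 fold change 1.04, SE 0.24, edgeR adjusted p = 0.254). Cd14, a co-receptor for bacterial lipopolysaccharide, was the lowest, with 2665 counts in Qa2- replicate 2 against 611 to 1007 in the others, and its log2 fold change of -1.01 became 0.43 without Qa2- replicate 2. DESeq2 called 2 of the 11 genes higher in WT, next to 2.79% of all genes, namely S100a1 (DESeq2 adjusted p = 0.017) and S100a13. Of the 9 uterine tissue markers, 5 had both WT libraries above both Qa2- libraries and 1 the reverse, and of the 8 epithelial markers kept 0 and 7 did.

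Cybb (ENSMUSG00000015340, chrX:9435252-9487771, minus strand) encodes gp91phox, the catalytic subunit of the phagocyte NADPH oxidase, which makes superoxide. Its expression was 23.6 and 38.2 CPM in WT and 22.9 and 27.4 CPM in Qa2- uteri. WT replicate 2 was the highest, but WT replicate 1 fell between the Qa2- uteri, so the groups overlapped. The means were 30.9 ± 10.3 CPM in WT and 25.2 ± 3.18 CPM in Qa2- uteri (SD, n = 2), with a log2 fold change of 0.40 (SE 0.28, edgeR adjusted p = 0.527). Without WT replicate 2 it was -0.018.

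Of the 3 subunits described here that assemble with gp91phox, Ncf1 and Ncf4 had both WT uteri above both Qa2- uteri, and Cyba, like Cybb, did not. Ncf1 (p47phox, the organizer) had 733 and 1069 counts against 501 and 479 (log2 fold change 0.74, SE 0.26, edgeR adjusted p = 0.303), and Ncf4 (p40phox) had 251 and 262 against 142 and 156 (log2 fold change 0.64, SE 0.26, edgeR adjusted p = 0.338). Cyba (p22phox, the membrane partner that also serves other oxidases) had 5715 and 3649 counts against 2668 and 4413, so the groups overlapped (log2 fold change 0.25, SE 0.33, edgeR adjusted p = 0.745). Its value was -0.086 without WT replicate 1, -0.078 without Qa2- replicate 1 and 0.67 without Qa2- replicate 2. The lowest of the list was Hvcn1, the proton channel that sustains the oxidative burst, at 0.22, or 0.0022 without WT replicate 2. The highest was Nox4, an oxidase of stromal and endothelial cells, with 1072 and 293 counts against 141 and 106. Its log2 fold change was 2.30 (SE 0.62, edgeR adjusted p = 0.271, DESeq2 adjusted p = 0.00389) and fell to 1.12 without WT replicate 1.

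The list of oxidase partners also holds Nox4, itself an oxidase and not a partner of gp91phox. As a group, 8 of the 9 genes of this list were kept, Nox4 among them. All 8 had a log2 fold change above 0, with TMM, with upper-quartile scaling and with library totals alone, and 7 or 8 did when any 1 library was left out. Both WT libraries were above both Qa2- libraries for 6 of the 8, Nox4 among them, where 25.4% of all genes were. The median was 0.39, next to 0.012 over all genes. None was called by edgeR, 2 had an unadjusted p under 0.05, Nox4 and Ncf1, both higher in WT (8.09% of all genes), and DESeq2 called Nox4 alone (2.79% of all genes).

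Markers of monocytes and macrophages were ordered like this group. Of 14 such markers, all kept, 8 had both WT libraries above both Qa2- libraries and 0 the reverse, compared with 25.4% and 24.5% of all genes, with 0 calls by edgeR and 3 by DESeq2 (2.79% of all genes higher in WT), and their summed level was 1165 and 1507 CPM in WT against 980 and 826 CPM in Qa2- uteri. Itgam (CD11b, the integrin that marks MDSC and other myeloid cells) had 610 and 954 counts against 438 and 256 (log2 fold change 1.04, SE 0.37, edgeR adjusted p = 0.310), and Adgre1 (F4/80) had 1608 and 2664 against 1365 and 1065. Of the 6 leucocyte markers 5 had a log2 fold change above 0, both WT libraries lay above both Qa2- libraries for 4 and below for 1, and the median was 0.44 (0.27 to 0.56 when any 1 library was left out), with 0 calls by edgeR or DESeq2. The exception was Ptprc (CD45, carried by all leucocytes), with 1344 and 1461 counts in WT and 1581 and 1607 in Qa2- uteri (log2 fold change -0.33, SE 0.16, edgeR adjusted p = 0.389).

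Per count of Ptprc, Cybb reached 0.720 and 1.03 in WT and 0.507 and 0.568 in Qa2- uteri, and Ncf1 0.545 and 0.732 against 0.317 and 0.298. Per count of Itgam, Cybb was 1.59 and 1.58 in WT and 1.83 and 3.57 in Qa2- uteri, and Ncf1 overlapped with 1.20 and 1.12 against 1.14 and 1.87. Per count of Adgre1, Cybb was 0.602 and 0.565 in WT and 0.587 and 0.857 in Qa2- uteri, and per count of Csf1r, the receptor of the macrophage growth factor, 0.181 and 0.184 against 0.118 and 0.229. Ncf1 overlapped per count of Adgre1, with 0.456 and 0.401 against 0.367 and 0.450, and was higher in WT per count of Csf1r, with 0.137 and 0.130 against 0.0736 and 0.120. Ncf4 per count of Ptprc was 0.187 and 0.179 in WT and 0.0898 and 0.0971 in Qa2- uteri. Per count of Itgam, Adgre1 or Csf1r, Ncf4 overlapped between the genotypes. The order of the genotypes thus depended on the marker, with Cybb higher in WT per Ptprc, higher in Qa2- uteri per Itgam and overlapping per Adgre1 and per Csf1r. These ratios are given without a test. The part of cell content in the oxidase result was not tested beyond them.

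**Figure D4:**
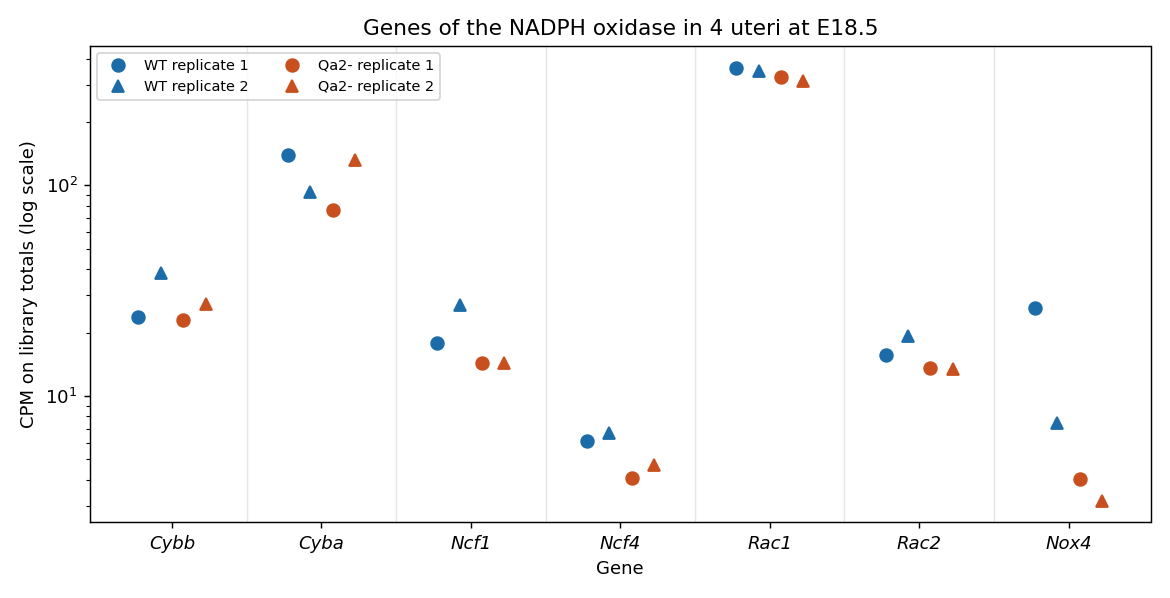
Cybb and genes of the NADPH oxidases in the 4 uteri. Points are single libraries, the vertical axis is CPM on library totals on a log scale, colors mark the genotype and shapes the replicate. Ncf1, Ncf4, Rac1, Rac2 and Nox4 lie higher in both WT uteri than in both Qa2- uteri, while Cybb and Cyba overlap.

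Ido1 (ENSMUSG00000031551, chr8:24584136-24597009, minus strand) encodes indoleamine 2,3-dioxygenase, which starves T-cells of tryptophan at the maternal-fetal interface. It had 26 and 0 counts in WT and 4 and 3 counts in Qa2- uteri. Only WT replicate 1 was clearly above the limit of 3 counts, with 0.634 CPM, and the 0 counts of WT replicate 2 allow at most 0.0761 CPM. A difference between the genotypes was not detectable at this depth (fit without the filter, log2 fold change 1.70, SE 1.5, edgeR adjusted p = 0.782). Its paralog Ido2, named after its values were seen, had 39 and 2 counts in WT and 0 in both Qa2- libraries, so that WT replicate 1 was again the high one.

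Of 10 further genes of tryptophan breakdown 6 were kept and 0 called by edgeR, 1 had a log2 fold change above 0, and the median was -0.22. This median was between -0.37 and -0.14 when any 1 library was left out. Both WT libraries were above both Qa2- libraries for 0 of the 6 and below for 2, compared with 25.4% and 24.5% of all genes. Tdo2, the tryptophan dioxygenase of liver and decidua, was the highest at 1.17, and resembled Ido1 in having its highest count in WT replicate 1, with 943 against 190 to 275 in the other libraries. Without that mouse it was -0.11. Kyat1, a kynurenine aminotransferase, was the lowest, with 1623 and 974 counts in WT and 1888 and 2029 in Qa2- uteri (log2 fold change -0.75, SE 0.25, edgeR adjusted p = 0.298).

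Cd274 (ENSMUSG00000016496, chr19:29367455-29388095, plus strand) encodes PD-L1, the ligand that engages the inhibitory receptor PD-1 on T-cells. Its expression was 3.92 and 2.06 CPM in WT and 2.61 and 2.13 CPM in Qa2- uteri. WT replicate 1 was the highest, and WT replicate 2 lay close to the Qa2- uteri, lowest on library totals and above Qa2- replicate 2 after TMM scaling, so that the groups overlapped, and the log2 fold change of 0.42 (SE 0.43, 95% interval -0.67 to 1.52, edgeR adjusted p = 0.664) became -0.12 without WT replicate 1. Its receptor Pdcd1, under the filter, had 54 and 4 counts in WT and 3 and 20 counts in Qa2- uteri.

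Of 13 other checkpoint ligands and receptors 10 were kept, 0 were called by edgeR, and both WT libraries lay above both Qa2- libraries for 5 and below for 2, compared with 25.4% and 24.5% of all genes. The median log2 fold change was 0.55, and 7 of the 10 were above 0. The highest was Havcr2 (TIM-3), with 535 counts in WT replicate 1 against 33 to 74 in the others, whose log2 fold change of 2.38 fell to 0.39 without that mouse. The lowest was Vtcn1 (B7-H4, a ligand of epithelial cells), with 1638 and 1599 counts against 1724 and 2021 (log2 fold change -0.35, edgeR adjusted p = 0.369).

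DESeq2 called 3 of the 10 checkpoint genes, all higher in WT, where it called 2.79% of all genes, namely Vsir, Cd80 and Cd200, and the following values were picked out for that reason. Vsir (VISTA, an inhibitory ligand of myeloid cells) was 122 ± 1.85 CPM in WT and 62.1 ± 1.62 CPM in Qa2- uteri (SD, n = 2), with a log2 fold change of 1.07 (SE 0.15, edgeR adjusted p = 0.246, DESeq2 adjusted p = 9.3e-05). Cd80 (B7-1, which binds CD28, CTLA-4 and PD-L1) was 6.39 ± 1.13 against 1.76 ± 0.023 CPM, with a log2 fold change of 1.95 (SE 0.30, edgeR adjusted p = 0.246, DESeq2 adjusted p = 9.4e-05). The replicates of each genotype lay close together for both genes.

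Hif1a (ENSMUSG00000021109, chr12:73901375-73947530, plus strand) encodes the oxygen-regulated subunit of hypoxia-inducible factor, whose activity is set mainly by the stability of the protein and not by its message. Expression was 177 and 189 CPM in WT and 217 and 196 CPM in Qa2- uteri, so that the 4 uteri lay within a narrow band. On library totals both Qa2- uteri were above both WT uteri, as were 32.0% of all genes, against 18.7% in the reverse order. After TMM scaling the values were 181 and 198 in WT and 214 and 187 in Qa2- uteri, and the groups overlapped. The log2 fold change was -0.081 (SE 0.18, edgeR adjusted p = 0.858). The span of Gm49321 overlaps that of Hif1a on the same strand. Read pairs that met exons of both genes are not part of this count, and which exons are shared was not examined.

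Partners and regulators of HIF-1α had log2 fold changes between -0.53 and 0.55 with all 4 libraries. All 10 were kept, 0 were called by edgeR, and the median log2 fold change was 0.042 with TMM and -0.054 on library totals, a scaling that moved the median of all genes from 0.012 to -0.083. Leaving out 1 library moved it to between -0.074 (without WT replicate 1) and 0.19 (without WT replicate 2). Epas1 (HIF-2α, prominent in endothelium) was the highest with 10081 and 8720 counts against 5971 and 5624 (log2 fold change 0.55, SE 0.18, edgeR adjusted p = 0.293). Hif3a, a modulator of the pathway, was the lowest with 557 and 936 counts against 1294 and 677 (log2 fold change -0.53, SE 0.41), and was -0.0011 without Qa2- replicate 1 and -1.01 without WT replicate 2. Arnt2, with 2120 and 231 counts against 528 and 1355, had a log2 fold change of 0.14 that depended on single libraries. It was -2.16 without WT replicate 1, 0.97 without WT replicate 2 and 0.99 without Qa2- replicate 2.

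All 15 HIF target genes were kept, 0 were called by edgeR, and 10 had a log2 fold change above 0 and 5 below. Both WT libraries were above both Qa2- libraries for 9 and below for 3, compared with 25.4% and 24.5% of all genes, and the median log2 fold change was 0.37. Ankrd37, a small ankyrin-repeat protein, was the highest with 167 and 106 counts against 52 and 27 (log2 fold change 1.64, SE 0.47, edgeR adjusted p = 0.275). Car9, the carbonic anhydrase widely used as a marker of hypoxia, was the lowest with 20 and 26 against 45 and 49 (log2 fold change -1.17, SE 0.43, edgeR adjusted p = 0.313).

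Vegfa and Adm, named because DESeq2 called them, pointed in opposite directions. Vegfa, the angiogenic growth factor, was 45.7 ± 0.036 CPM in WT and 85.4 ± 6.77 CPM in Qa2- uteri (SD, n = 2, log2 fold change -0.81, SE 0.15, edgeR adjusted p = 0.246, DESeq2 adjusted p = 0.012). Adm, the vasodilator adrenomedullin, was 36.3 ± 18.3 against 12.9 ± 0.063 CPM (log2 fold change 1.58, SE 0.37, edgeR adjusted p = 0.254, DESeq2 adjusted p = 0.00434). Leaving out WT replicate 1 lowered the value of Adm to 0.94. Vegfa (chr17:46016993-46032369) lies on chromosome 17, as does H2, while none of the 8 effector genes does. Other genes of the related lists lie there too, Ager and Epas1 among them. Whether position on this chromosome takes part in any value was not tested.

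Stat3 (ENSMUSG00000004040, chr11:100885098-100939540, minus strand) encodes the transcription factor that carries signals of the IL-6 family, IL-10 and G-CSF, and is activated by phosphorylation. Its expression was 183.5 and 216.3 CPM in WT and 216.7 and 269 CPM in Qa2- uteri. Qa2- replicate 2 was highest and WT replicate 1 lowest, and WT replicate 2 and Qa2- replicate 1 were nearly equal. As for Hif1a, the groups were apart on library totals and overlapped after TMM scaling (188 and 226 against 214 and 257), and the log2 fold change was -0.18 (SE 0.21, edgeR adjusted p = 0.707). It stayed between -0.33 and -0.044 when any 1 library was left out.

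Of 16 cytokines, receptors and kinases upstream of STAT3, 12 were kept and 0 called by edgeR, and the groups were apart for 4 genes in each direction, compared with 25.4% (WT above) and 24.5% (Qa2- above) of all genes, with a median log2 fold change of -0.15, or -0.0086 without Qa2- replicate 2. Lif, the leukaemia inhibitory factor needed for implantation, was the lowest with 107 and 98 counts in WT and 212 and 298 in Qa2- uteri (log2 fold change -1.46, SE 0.31, edgeR adjusted p = 0.246, DESeq2 adjusted p = 0.00597). Il11ra1, the receptor for IL-11, was the highest with 4116 and 3871 counts against 2383 and 2074 (log2 fold change 0.70, SE 0.15, edgeR adjusted p = 0.246, DESeq2 adjusted p = 0.037). For both genes the groups did not overlap.

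The 11 STAT3 target genes, all kept, had 0 calls by edgeR or DESeq2 and 0 at an unadjusted p under 0.05, where 8.09% and 7.09% of all genes reached the latter. Their median was 0.13, and between -0.079 (without Qa2- replicate 1) and 0.34 (without Qa2- replicate 2) when 1 library was left out. They ranged from Il4ra at -0.33, the IL-4 receptor chain used to describe monocytic MDSC, to Birc5 at 0.63, the survival factor survivin. In the 250 bases upstream of the start, the STAT palindrome TTCNNNGAA was found in 0 of the 6 effector genes with a promoter entry and in 7.02% of 32851 promoters. The hypoxia core ACGTG or GCGTG, on either strand, was found in 2 of the 6, Hif1a and Cd274, and in 38.6% of promoters. No match means only that these letters are not in this window.

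Genes that other work has tied to suppression by myeloid cells were read as a last group. Of 14 such genes 12 were kept and 0 called by edgeR, 10 had a log2 fold change above 0 (9 on library totals), and the median was 0.60. When any 1 library was left out the median was between 0.27 (without WT replicate 1) and 0.65. Both WT libraries lay above both Qa2- libraries for 5 and below for 1, compared with 25.4% and 24.5% of all genes. Olr1 (LOX-1, a surface marker of granulocytic MDSC in humans) was the highest, with 14566 counts in WT replicate 1 against 176 to 352 in the others, and its log2 fold change of 4.62 became -0.43 without that mouse. Slc27a2 (FATP2, a fatty acid transporter) was the lowest, with 693 and 445 counts against 771 and 1183 (log2 fold change -0.93, SE 0.31, edgeR adjusted p = 0.294). DESeq2 called 1 of the 12, Tgfb1, higher in WT, where it called 2.79% of all genes. Tgfb1 had 3193 and 2686 counts in WT and 1659 and 1359 in Qa2- uteri (log2 fold change 0.82, SE 0.17, edgeR adjusted p = 0.246, DESeq2 adjusted p = 0.024). Its log2 fold change stayed between 0.69 and 0.96 when any 1 library was left out.

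Over all 10 related lists together, 109 of 126 genes were kept and 0 were called by edgeR. Both WT libraries were above both Qa2- libraries for 48 of the 109 and below for 17, where the shares over all genes were 25.4% and 24.5%, and 26 and 7 had an unadjusted p under 0.05 in these directions, next to 8.09% and 7.09% of all genes. DESeq2 called 10 higher in WT and 2 higher in Qa2- uteri, next to 2.79% and 2.04%. The median log2 fold change was 0.23 against 0.012 over all genes. For the 5 effector genes kept, these counts were 0 in each direction after TMM scaling, and this contrast with the related lists was not tested. The related lists, like the effector genes, had been chosen with earlier results of these data known.

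**Figure D5:**
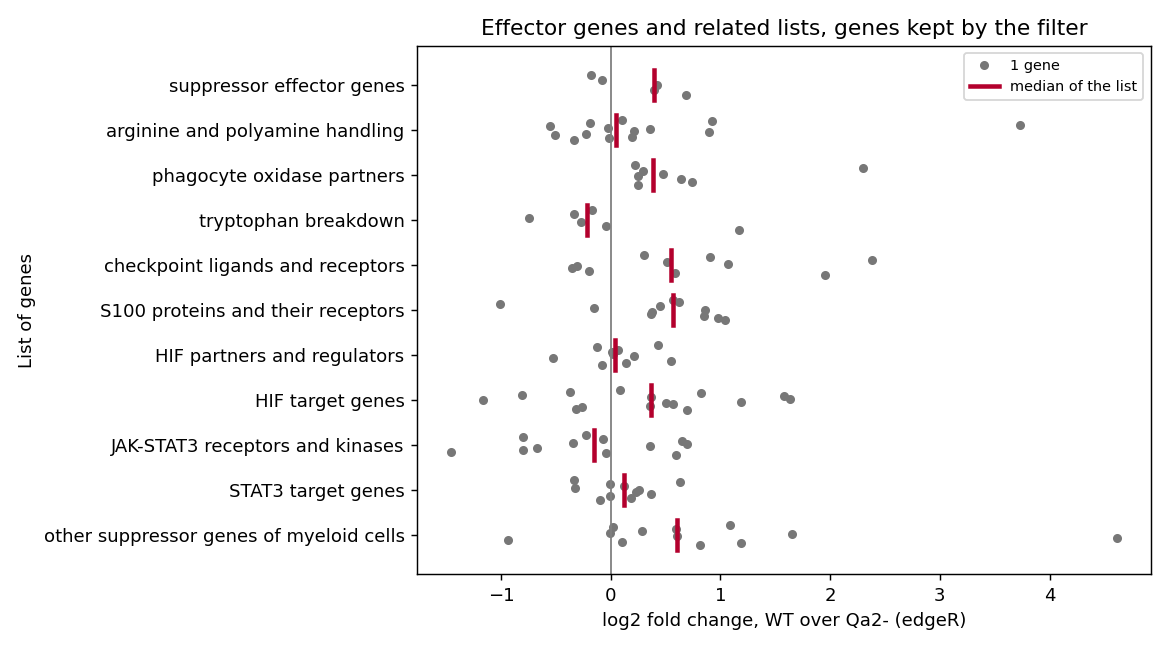
Log2 fold change of WT over Qa2- for the effector genes and 10 related lists. Each point is 1 gene kept by the filter, the red line the median of its list and positive values are higher in WT. The effector genes have a median of 0.40, all 8 genes of the oxidase list, Nox4 included, lie above 0, and Gatm at 3.73 and Olr1 at 4.62 lie far from their lists, each with 1 uterus that stands apart.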

How the data were processed

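The values deposited by the authors are raw counts of read pairs per gene. The submitters' processing notes name STAR 2.7.3a, featureCounts 2.0.0 and GRCm38.p6, and per the file headers pairs were counted on the reverse strand with both ends mapped, without pairs of several positions or several genes. Exon lengths came from the deposited tables. Symbols were matched by GENCODE M21 for 55240 identifiers. The effector genes and all lists were chosen with earlier results of these data known, and some genes of the set and of the lists are not reported here, so that medians and counts are over the genes reported. From each related list the genes with the highest and the lowest log2 fold change were named, together with direct partners of Cybb and marker genes. Ltf, Csf1r, Ngp, Camp, Elane, Ido2, Pdcd1, Vsir, Cd80, Cd200, S100a13, Tlr4, Ager, Arnt2, Tgfb1, Vegfa and Adm were named after their values were seen. Genes with at least 1 CPM in 2 libraries were compared with edgeR 4.0.16 (TMM, glmQLFit, glmQLFTest) in R 4.3.3. Adjusted p-values are Benjamini-Hochberg values over all 14492 genes, and the SE is the log2 fold change divided by the square root of F. DESeq2 1.42.0, other scalings and filters, a replicate block and leaving out each library were alternatives. The steps were tested on simulated data. CPM and TPM are on library totals unless TMM is named. The libraries came from different mice, and same-numbered libraries deviated in opposite directions (correlation across genes -0.37), so the numbers do not pair them.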

Additional observations from a re-analysis of the deposited data

How the results depend on the processing

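Under every alternative except leaving out a library, the 5 effector genes kept gave 0 calls, and under those that refit the log2 fold change, other than the crossed pairing, its sign was kept. With DESeq2 the calls were 404 (higher in WT) and 296 (higher in Qa2- uteri), and 12 within the related lists, where edgeR gave 0. Without the filter, edgeR called 47 and 14 genes. The replicate block gave 2 genes higher in WT and changed no call of an effector gene or related list. The crossed pairing, chosen after seeing the data, called 0 genes in each direction and 0 effector genes. Leaving out 1 library, with the lone library of a group assumed to vary like the others, gave 0 to 88 genes higher in WT and 0 to 5 higher in Qa2- uteri, the most in both cases without WT replicate 2, with 4 higher in WT without WT replicate 1. It called 0 effector genes and put 0 or 1 of them at an unadjusted p under 0.05, 1 without WT replicate 1 and 1 without Qa2- replicate 2. Their median, 0.40 with all libraries, was then -0.047 (without WT replicate 1) to 0.26, with -0.018 without WT replicate 2 and 0.017 without Qa2- replicate 1. The log2 fold change was then -0.022 to 2.14 for S100a9 (below 0 without Qa2- replicate 1), -0.018 to 0.69 for Cybb (below 0 without WT replicate 2), -0.12 to 0.80 for Cd274 (below 0 without WT replicate 1), -0.17 to 0.017 for Hif1a (above 0 without Qa2- replicate 1) and -0.33 to -0.044 for Stat3. The cause of these shifts was not tested. With 2 mice in each group, moderate changes of scarce genes such as Nos2, S100a8 and Ido1 were not detectable at this depth.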
